A study of Mus musculus with 4 samples.

Results

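Immediate early and stress response genes were followed across the cell classes of the neonatal mouse oviduct and uterus. The set holds 35 genes of the 31053 in the deposited tables, and all 35 were found by symbol. The genes were chosen by name with organ differences of these data already known, so every oviduct against uterus value below is a description of the chosen genes. This also holds for the counts of genes called between organs and for the interactions of organ and class, which stand beside the share of all genes called and from which nothing is read. The rule names no difference between cell classes, and that comparison is tested within libraries. Which class results were known when the genes were chosen is not given in the sources used here.

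Immediate early genes are transcribed within minutes of a growth factor, cytokine, mechanical or stress signal, without new protein synthesis, because the factors that switch them on are already bound or quickly activated. Many encode transcription factors (AP-1 subunits of the Fos and Jun families, Egr zinc finger factors, Nr4a orphan nuclear receptors, Atf3, Klf and Cebp factors). Others end the signal, such as Dusp1, a phosphatase of MAP kinases, Socs3, an inhibitor of cytokine receptor signalling, and Zfp36, which binds AU-rich elements and speeds mRNA decay. Enzymatic dissociation of tissue is itself known to induce many of these genes before cells are lysed.

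The samples were single-cell suspensions of oviducts and uteri from untreated wild-type CD1 (ICR) mice at postnatal day 3. Each organ had 2 libraries. Both organs came from the same pools of 3 and 4 neonates, so a library is a pool of animals and the spread between the 2 libraries of an organ is a spread between pools. A mixture of Collagenase B, Dispase II and DNase I freed the cells from the tissue. For how long and at which temperature is not given in the sources used here. The Chromium 3' chemistry of 10x Genomics was used, which counts captured molecules by their 3' end (UMIs, unique molecular identifiers), so that levels are per molecule and not per length.

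Called barcodes numbered 7808 and 6773 in the oviduct libraries, with 114419939 and 82213345 UMIs, and 5716 and 6322 in those of the uterus, with 61117726 and 70172415 UMIs. The minimum of 500 detected genes and maximum of 15% mitochondrial UMIs took away 11.4% and 13.8% of oviduct barcodes against 29% and 28.7% of uterine barcodes. Cells were put into 7 classes by marker genes that include no member of the set. In none of these classes were 22.0% and 24.3% of the kept oviduct cells and 30.9% and 32.7% of the kept uterine cells, and their part in the organ differences was not tested. Mesenchyme was the largest class, with 3274 and 2392 oviduct cells and 1732 and 1910 uterine cells, and uterine mesothelium (57 and 49 cells) and uterine myeloid cells (45 and 31) were the smallest groups. Libraries shared 8 to 15 barcodes per pair. Each class held its own markers, but in mesothelium and in pericytes of oviduct replicate 1 the markers of another class had a higher sum. In mesenchyme, the summed mesenchyme markers were at 12060 and 12240 CPM (UMIs per 1000000 UMIs of the class) in oviduct mesenchyme and at 4509 and 4450 in uterine mesenchyme, and only 3 of the 18 clusters with mesenchyme cells held at least 20 of them in every library.

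The promoters of 5 members, picked by name, are shown because they carry the binding letters for which immediate early promoters are known. Each sequence is the 250 bases before the RefSeq transcription start (GRCm38.p6), 5′ to 3′ on the strand of the gene, with the motifs found in capitals. On either strand, the capitals mark TGACG (the short site bound by CREB and ATF factors) or its complement CGTCA, TGACGTCA (the full site), GCGNGGGCG (bound by Egr factors), TATAAA (the TATA box), TTCNNNGAA (bound by STAT factors) and the CArG box (bound by serum response factor).
Fos (chr12:85473640-85473889, plus strand): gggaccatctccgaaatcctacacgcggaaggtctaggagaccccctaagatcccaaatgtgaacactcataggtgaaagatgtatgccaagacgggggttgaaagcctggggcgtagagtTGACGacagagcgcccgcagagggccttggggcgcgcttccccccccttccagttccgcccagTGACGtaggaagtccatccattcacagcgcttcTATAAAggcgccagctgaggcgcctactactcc
Nr4a1 (chr15:101266596-101266845, plus strand): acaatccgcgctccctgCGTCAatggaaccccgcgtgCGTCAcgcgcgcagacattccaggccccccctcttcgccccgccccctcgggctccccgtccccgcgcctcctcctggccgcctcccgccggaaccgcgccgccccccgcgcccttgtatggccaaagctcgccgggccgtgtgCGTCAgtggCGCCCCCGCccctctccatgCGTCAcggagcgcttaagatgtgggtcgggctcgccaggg
Dusp1 (chr17:26508473-26508722, minus strand): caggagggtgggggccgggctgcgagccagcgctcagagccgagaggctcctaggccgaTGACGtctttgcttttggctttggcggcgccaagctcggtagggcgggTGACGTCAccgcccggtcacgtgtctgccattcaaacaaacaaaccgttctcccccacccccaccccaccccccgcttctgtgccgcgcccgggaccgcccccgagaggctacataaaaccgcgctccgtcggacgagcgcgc
Zfp36 (chr7:28379229-28379478, minus strand): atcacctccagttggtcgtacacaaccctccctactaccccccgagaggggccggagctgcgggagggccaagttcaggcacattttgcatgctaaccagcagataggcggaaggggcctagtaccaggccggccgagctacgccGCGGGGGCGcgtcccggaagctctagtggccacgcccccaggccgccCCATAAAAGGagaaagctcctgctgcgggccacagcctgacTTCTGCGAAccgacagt
Socs3 (chr11:117969367-117969616, minus strand): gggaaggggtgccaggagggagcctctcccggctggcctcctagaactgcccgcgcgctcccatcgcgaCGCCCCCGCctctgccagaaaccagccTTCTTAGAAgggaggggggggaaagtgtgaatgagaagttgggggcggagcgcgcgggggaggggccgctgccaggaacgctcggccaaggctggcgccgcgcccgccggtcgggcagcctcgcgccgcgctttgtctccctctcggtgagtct

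Fos carried TGACG at 129 and 66 bases before the start and TATAAA at 33. Nr4a1 carried 4 copies of the short site on the other strand and 1 Egr site, Dusp1 the full site TGACGTCA at 143 bases before the start, Zfp36 the CArG box at 58, and Socs3 a TTCNNNGAA match at 154. RefSeq windows of 250 bases before to 50 after the start, searched on both strands, were found for 28 of the 35 members and for 27025 genes in all. TGACG stood in a window of 14 of the 28 members (50%) and of 23.0% of all genes. GCGNGGGCG stood in 12 (42.9%) against 6.27%, TGACGTCA, which contains TGACG, in 3 (10.7%) against 2.03%, TATAAA in 7 (25%) against 15.7%, TTCNNNGAA in 4 (14.3%) against 9.55%, and the CArG box in 2 (7.14%) against 1.81%. The AP-1 letters TGANTCA stood in 0 of the 28 members and in 8.97% of all genes, which says only that these letters are not in these windows. These are matches of letters and not measured binding. Zfp36l2, Cebpd, Fosl1, Egr3, Myc, Egr1 and Ier2 were missing from the collection of windows searched, which does not mean that RefSeq lacks them.

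In mesenchyme, nearly the whole set stood higher in the oviduct. Together the 35 genes made up 1.26% and 1.57% of all mesenchymal UMIs for the oviduct libraries against 0.467% and 0.618% for the uterine libraries, and the lower oviduct library was more than double the higher uterine one. The ratio of the means was 2.61, with 2.70 in pair 1 and 2.54 in pair 2 of same-numbered libraries. The labels do not say which number is which pool, so a pair is a pair of numbers. A gene counts as called where edgeR's quasi-likelihood test on summed counts gave a p under 0.05 after Benjamini-Hochberg adjustment across every gene tested in that class, and log2 fold changes are oviduct minus uterus ± their standard error. All 35 members were called, 33 with the oviduct higher and 2 with the uterus higher, where 23.3% of the 14976 genes tested were called with the oviduct higher and 20.6% with the uterus higher. The median of the members was 1.47 and that of all genes -0.0034. Both oviduct libraries lay above both uterine libraries for 33 members, an order that 40.3% of all genes tested had, below both for 1, and overlapped for 1.

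**Figure D1:**
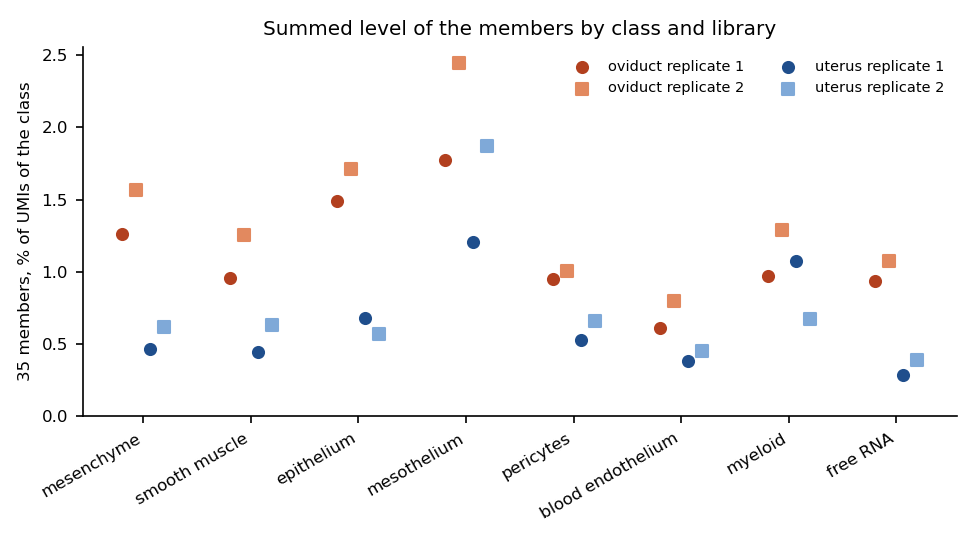
Summed level of the 35 members as a percentage of all UMIs of each class, one point per library (red circle and square, oviduct replicates 1 and 2; blue circle and square, uterus replicates 1 and 2), with free RNA from droplets not called as cells at the right. The oviduct points lie above the uterine points in 5 classes and in free RNA, and overlap with them in mesothelium and myeloid cells.

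The AP-1 subunits, which dimerise to bind DNA, were the most abundant family, with 5914 and 7504 CPM for the oviduct libraries against 2670 and 3329 for the uterine ones. Fos was at 1712 and 2137 CPM in the oviduct against 798 and 818 in the uterus (log2 fold change 1.20 ± 0.10). Jun, its main partner, was at 1221 and 1504 CPM against 657 and 879 (0.77 ± 0.14). The smallest gap between the organs among the abundant subunits was that of Jun. Jund, the least inducible Jun protein, was at 1166 and 1263 CPM against 518 and 666 (0.98 ± 0.12). Junb was at 942 and 1367 CPM against 260.0 and 500.2 (1.54 ± 0.25), and its libraries differed within an organ more than those of Fos. Fosb was at 739 and 1057 CPM against 407 and 434 (1.04 ± 0.13). Fosl2 lay higher still in the oviduct by fold (2.26 ± 0.12) from a lower level, and Fosl1 was nearly absent, with 21 and 33 UMIs in the oviduct and 4 in each uterine library, of which free RNA could supply up to 35.4%.

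The Nr4a genes, which encode ligand-independent nuclear receptors, differed most as a family. Their summed level was 593 and 845 CPM in the oviduct against 74.8 and 120.0 in the uterus, a ratio of 7.38, against 2.24 for the AP-1 subunits and 2.24 for the Egr factors. Nr4a1 was at 406 and 559 CPM against 53.8 and 94.0 (2.65 ± 0.22). Nr4a2 was at 140.2 and 208 CPM against 15.2 and 17.3 (3.36 ± 0.16), the largest change of the set in mesenchyme. Nr4a3 was at 47.1 and 77.7 CPM against 5.81 and 8.73 (3.03 ± 0.22). In all 3, both uterine libraries lay far below both oviduct libraries.

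Egr1, the zinc finger factor that accompanies Fos in most growth factor responses, was at 870.2 and 1179 CPM in the oviduct against 411 and 515 in the uterus (1.09 ± 0.14). Egr2 and Egr3 had log2 fold changes of 0.89 ± 0.15 and 2.34 ± 0.33 at levels of at most 33.1 CPM. Among the other transcription factors, Cebpb was at 620.2 and 595 CPM against 76.1 and 109 (2.66 ± 0.15). Atf3, a stress-induced factor of the ATF/CREB family, was at 242 and 284 CPM against 22.2 and 41.1 (2.99 ± 0.22). These 2 had oviduct levels several times those of the uterus in both pairs, with Atf3 at 10.9 times in pair 1 and 6.92 times in pair 2. Klf2 was at 147 and 184 CPM against 55.5 and 70.8 (1.33 ± 0.13), and Irf1, an interferon regulatory factor, at 128 and 215 CPM against 33.8 and 75.3 (1.59 ± 0.30). Cebpd (2.0 ± 0.17), Maff, a small Maf protein (1.76 ± 0.38), and Klf4 (1.39 ± 0.14) were also higher in the oviduct. Klf6 was close between the organs, at 81.9 and 109 CPM against 70.7 and 75.4 (0.33 ± 0.12).

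The genes that limit or shape the response followed the same order. Socs3 was at 661 and 596 CPM in the oviduct against 160.3 and 166 in the uterus (1.90 ± 0.09). Zfp36 was at 197 and 344 CPM against 56.9 and 129 (1.47 ± 0.31), and its relative Zfp36l2 at 291 and 318 CPM against 107 and 116 (1.40 ± 0.09). The 2 relatives had similar folds, but replicate 2 stood well above replicate 1 in both organs for Zfp36 and only slightly for Zfp36l2. Tiparp, a mono-ADP-ribosyltransferase, was at 266 and 236 CPM against 47.4 and 48.5 (2.34 ± 0.09). Ier2 was at 438 and 583 CPM against 195 and 319 (0.93 ± 0.19), and Ier3, which modulates survival signalling, at 299 and 522 CPM against 129 and 265 (0.99 ± 0.29). Dusp1 (1.44 ± 0.21) and Ppp1r10, a regulatory subunit of protein phosphatase 1 (1.23 ± 0.11), were higher in the oviduct as well, and Ier5 differed by 0.47 ± 0.11.

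Among the growth arrest genes, Btg2, an antiproliferative cofactor of mRNA deadenylation, was at 916 and 927 CPM in the oviduct against 192 and 247 in the uterus (2.02 ± 0.12). Gadd45b, a stress sensor that activates p38 signalling, was at 238 and 381 CPM against 55.1 and 126 (1.71 ± 0.30). Cdkn1a, which encodes the cell cycle inhibitor p21, was at 91.8 and 92.1 CPM against 8.57 and 13.2 (3.02 ± 0.16), so that its oviduct libraries nearly coincided. Gadd45g, a relative of Gadd45b, went the other way, at 57.6 and 65.9 CPM against 64.3 and 93.7 (-0.41 ± 0.15), with overlapping libraries. Myc, the growth-promoting factor of the set, was the only member with both uterine libraries above both oviduct libraries, at 27.6 and 32.2 CPM against 40.7 and 43.3 (-0.54 ± 0.09).

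**Figure D2:**
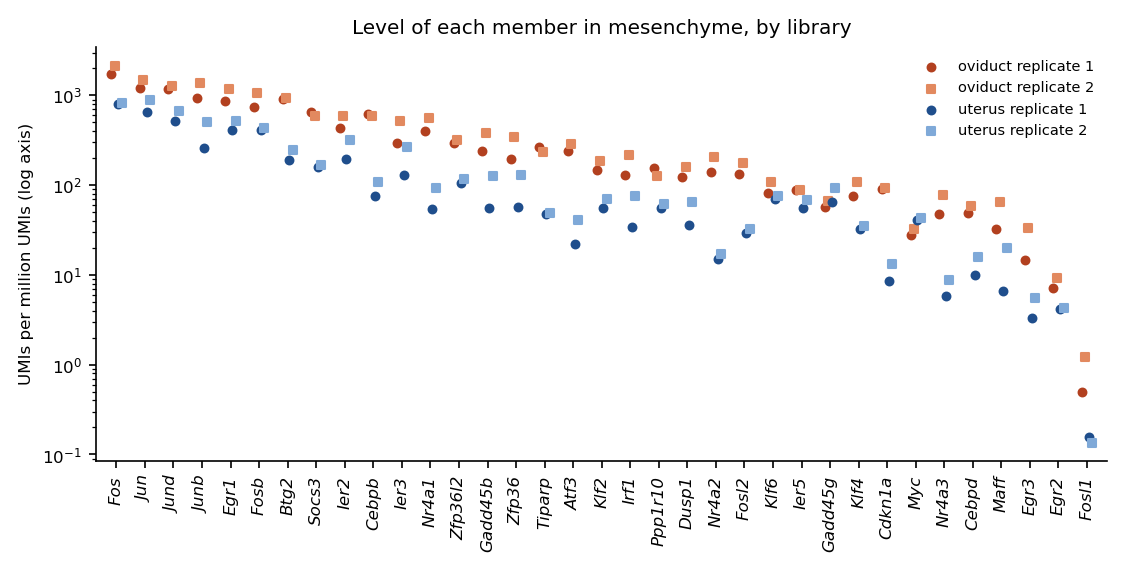
Level of each member in mesenchyme in CPM on a log axis, ordered by the mean over the 4 libraries, one point per library (red, oviduct; blue, uterus; circles, replicate 1; squares, replicate 2). The red points lie above the blue points for 33 members, below them for Myc, and among them for Gadd45g.

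Some of these mesenchymal values turned on which cells or counts were used. Within the 3 clusters shared by all libraries (1582 cells; clusters were built without removing the members), 34 members were tested, and 22 were called toward the oviduct and 2 toward the uterus, with a median of 0.83 against 1.46 over all mesenchyme for the same genes. Of all genes tested there, 12.3% were called toward the oviduct and 9.35% toward the uterus. There Fos (0.31), Jun (0.25) and Egr1 (0.42) were not called, nor were Egr2, Egr3, Ier2, Ier3, Klf6 and Zfp36, and Ier5 was at -0.14. Nr4a3 (2.82), Cdkn1a (2.18), Cebpb (1.95), Nr4a2 (1.91) and Atf3 (1.61) were still called, and Gadd45g was further toward the uterus (-1.68). The mix of the 3 clusters still differed by organ. Cluster 11 held 368 and 242 oviduct cells against 37 and 23 uterine cells, and cluster 14 held 28 and 28 against 149 and 182. Cluster 8 was more even, with 154 and 102 against 125 and 144. The part of this mix in the values was not tested. Gadd45g was not called with library sizes alone as the scale, with DESeq2, after subtraction of free RNA, or without uterus replicate 2. DESeq2 also did not call Ier2, Ier3, Irf1, Maff and Zfp36. Klf6 was not called with whole clusters as classes, after subtraction of free RNA, without oviduct replicate 2 or without uterus replicate 1, Ier3 not without uterus replicate 1, and Fosl1 not without oviduct replicate 2.

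In mesenchyme, replicate 2 stood above replicate 1 for 31 of 35 members in the oviduct and for 34 of 35 in the uterus. Elsewhere in the uterus this held for 31 in smooth muscle, 33 in mesothelium, 27 in pericytes and 23 in blood endothelium. It held for only 8 in uterine epithelium and 9 in uterine myeloid cells. The share of all genes with this order was not counted, and nothing is read from these counts. In mesenchyme the lowest oviduct library was nevertheless above the highest uterine one for 33 members. Free RNA showed the same organ order. In droplets not called as cells (1 to 100 UMIs), the 35 members made up 0.936% and 1.07% of UMIs in the oviduct against 0.285% and 0.390% in the uterus, with both oviduct libraries above both uterine ones for 33 members and for 59.7% of the genes tested in mesenchyme. In mesenchyme 19 members were above their free RNA level in every library, among them Fos (1.54 to 2.55 times) and Tiparp (2.18 to 4.72 times), and 3 were below it in every library. After subtraction of the largest amount of free RNA that the markers of other classes allow, 32 of 34 members tested in mesenchyme were called, 31 higher in the oviduct, where 22.2% of all genes were.

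The share of mitochondrial UMIs, a sign of damaged cells, also differed, with medians of 4.18% and 4.43% in oviduct mesenchyme and 5.18% and 5.02% in uterine mesenchyme. Mesenchyme cells with under 3% mitochondrial UMIs had 1.31% and 1.69% of their UMIs in the members in the oviduct against 0.530% and 0.889% in the uterus. Cells with 3 to 6% had 1.29% and 1.60% against 0.504% and 0.661%, and cells with 6 to 15% had 0.734% and 1.23% against 0.30% and 0.399%. The oviduct libraries were above the uterine ones in each of these ranges, and within every library the members were lowest in the range of most mitochondrial RNA. The larger share of uterine barcodes lost to the filters also moves with the organ, and its part in the results was not tested, nor was that of dissociation.

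In smooth muscle most members tested were likewise higher in the oviduct. Of 34 members tested, 26 were called higher in the oviduct (15% of all genes were) and 2 higher in the uterus (12.4% of all genes were), with a median of 1.30. The Nr4a ratio was 7.12 here. Nr4a3 was at 34.3 and 72.2 CPM in oviduct muscle and at 1.01 and 2.57 in uterine muscle (4.81 ± 0.40), the largest change of any member in any class, from 8 and 23 uterine UMIs. Cdkn1a was at 89.4 and 83.8 CPM against 6.08 and 8.39 (3.54 ± 0.15). Jun did not follow, at 902 and 1097 CPM against 794 and 1071 (0.07 ± 0.13), and its libraries overlapped. Ier3 (0.66) and Zfp36 (0.76) were not called, but were with the replicate number as a block and in 3 other alternatives. Gadd45g (-1.08 ± 0.17) and Myc (-0.54 ± 0.16) were higher in uterine muscle, Myc not without oviduct replicate 1 or uterus replicate 2, and Klf6 and Ier5 differed by -0.25 and 0.08. DESeq2 called 18 members, 16 and 2. The 12 mesenchyme markers, of which 0 were at 0, summed to 6846 and 6374 CPM in oviduct muscle and 5564 and 5067 in uterine muscle, and their part in these values was not tested.

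In epithelium 32 of 35 members were called, all higher in the oviduct, where 13.9% of genes tested were, with a median of 1.67. It rests on 154 and 280 oviduct cells and on 52 and 72 uterine cells. Their medians were 15501, 9359, 6393.5 and 2299.5 UMIs and 4.59%, 4.23%, 5.39% and 1.54% mitochondrial UMIs. The 6 markers of ciliated epithelium, of which 0 were at 0, summed to 306 and 154 CPM in oviduct epithelium and to 32.2 and 23.9 in uterine epithelium. The 11 mesothelial markers summed to 1132 and 994 CPM against 908 and 805, with 0 of them at 0. The 5 neuron markers, of which 1 was at 0, summed to 11.8 and 7.37 CPM against 65.7 and 53.1. The part of the depths and of these markers in the result was not tested. Tiparp was at 193 and 256 CPM against 21.0 and 15.1 (3.8 ± 0.24), from 30 and 31 uterine UMIs. Klf2, a flow- and quiescence-associated factor, was at 196 and 209 CPM against 23.1 and 14.1 (3.62 ± 0.23). Free RNA could supply up to 22.8% of its epithelial UMIs in uterus replicate 1, and less in the other libraries. Ier3 was at 1608 and 1933 CPM against 247 and 315 (2.79 ± 0.20). Ier5, Jun and Jund were not called with the replicate number as a block. The 3 members that were not called were Egr1 (0.43 ± 0.21), Ier2 (0.28 ± 0.18) and Myc (0.06 ± 0.21), whose libraries overlapped. Gadd45g, lower in oviduct mesenchyme, was higher in oviduct epithelium, at 259 and 265 CPM against 103 and 79.0 (1.67 ± 0.19).

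Mesothelium, the outer lining of both organs, had high levels in both. Its members made up 1.78% and 2.45% of UMIs in the oviduct against 1.21% and 1.87% in the uterus, so that the organs overlapped, with ratios of 1.48 in pair 1 and 1.31 in pair 2. Of 35 members 13 were called higher in the oviduct (4.59% of all genes were) and 1 higher in the uterus (3.36% of all genes were), with a median of 0.49. Of the 7 AP-1 subunits 0 were called by edgeR, with 5 at an unadjusted p under 0.05 (20.9% of all genes were), and DESeq2 also called 0. With the replicate number as a block 5 of them were called, and 6 of the 7 were higher in the oviduct within both pairs. Fos was at 2899 and 3813 CPM against 1899 and 2788 (0.51 ± 0.17), with ratios of 1.53 and 1.37 within the pairs, and was called with the block. Jun, at 1.11 and 0.917 times, was the exception. The 3 Nr4a genes were called, as were Tiparp (1.81 ± 0.16), Cdkn1a (1.56 ± 0.14), Egr3 (1.75 ± 0.34), Irf1 (1.30 ± 0.13) and Btg2 (1.29 ± 0.15). Cebpd was at 32.2 and 36.1 CPM against 40.9 and 66.5 (-0.66 ± 0.20), not called but called in 6 of 11 alternatives, the block among them, and Gadd45g at 61.8 and 58.3 against 111 and 191 (-1.33 ± 0.19). With the replicate number as a block 25 members were called (22 and 3), against 11.6% of all genes. Without oviduct replicate 1 there were 29 (10.6%), and with no filter on low counts 24 (7.29%). There were 11 without uterus replicate 1 (5.4%) and after subtraction of free RNA (6.27%). The median of 0.49 fell to 0.27 without uterus replicate 1 and to 0.31 without oviduct replicate 2, and was 0.91 without uterus replicate 2. The 12 mesenchyme markers, of which 0 were at 0, summed to 7834 and 6971 CPM in oviduct mesothelium and to 12630 and 10200 in the uterus. These sums exceed those of the 11 mesothelial markers, at 4599 and 4683 CPM against 4604 and 4177. The 16 epithelial markers summed to 3193 and 3031 CPM against 2448 and 2314, and the 12 smooth muscle markers to 690 and 639 against 1492 and 1572, with 0 of either list at 0. The 12 blood endothelium markers, with 0 at 0, summed to 179 and 181 CPM against 286 and 273.5. The 5 neuron markers, of which 1 was at 0, summed to 225 and 148 CPM against 523 and 449. The part of all these lists in the values of this class was not tested.

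Pericytes, the mural cells of small vessels, had 22 of 34 members called, all higher in the oviduct, against 3.61% of all genes, with a median of 0.79. Cdkn1a (1.55 ± 0.24), Cebpb (1.23 ± 0.12), Klf4 (1.23 ± 0.23) and Atf3 (1.20 ± 0.16) had the largest changes. Jun (0.03 ± 0.12) and Ier2 (0.10 ± 0.18) were among the members not called, and DESeq2 called 12. The 10 pericyte markers summed to 4142 and 5083 CPM in oviduct pericytes and to 4226 and 3585 in the uterus. The 12 smooth muscle markers, of which 0 were at 0, summed to 4787 and 4322 CPM against 2900 and 2405, in oviduct replicate 1 above the pericyte markers. The 12 mesenchyme markers, again with 0 at 0, summed to 2863 and 2389 CPM against 2553 and 2578. The part of the smooth muscle and mesenchyme lists was not tested. Blood endothelium had 26 of 34 called, all higher in the oviduct, against 2.9% of all genes, with a median of 0.94. Nr4a3 had the largest value (2.13 ± 0.56), from 0 and 13 uterine UMIs. In free RNA Nr4a3 was at 26.3 and 40.4 CPM in the oviduct and at 1.90 and 4.50 in the uterus. Free RNA could make up at most 3.51% and 2.72% of all oviduct endothelial UMIs and 4.77% and 6.28% of the uterine ones. The call of Nr4a3 was lost after subtraction of free RNA, with DESeq2 and with whole clusters as classes. Irf1 was at 163 and 175 CPM in oviduct endothelium and at 54.8 and 64.3 in the uterus (1.53 ± 0.15). DESeq2 called 16 endothelial members, and 17 were called without oviduct replicate 2. Btg2, Jun, Jund, Klf6 and Zfp36l2 were not called with the replicate number as a block.

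In myeloid cells 0 of 34 members were called by edgeR, with 8 at an unadjusted p under 0.05 (7.68% of all genes were), and DESeq2 also called 0. Here 0.0517% of all genes were called higher in the oviduct. The class had 31 to 79 cells per library. The 12 mesenchyme markers, of which 0 were at 0, summed to 1869 and 480 CPM in oviduct myeloid cells and to 119 and 177 in the uterus. The 6 lymphatic endothelial markers, of which 4 were at 0 in every library, summed to 678 and 530 CPM against 287 and 173, and the part of both lists was not tested. The members made up 0.968% and 1.29% of UMIs in the oviduct against 1.08% and 0.674% in the uterus, which overlap. Atf3 was at 238 and 266 CPM against 479.7 and 103 (-0.25 ± 0.54), with both oviduct libraries between the uterine ones. Egr2, the Egr factor known from macrophages, was at 136 and 134 CPM against 43.1 and 38.5 (1.68 ± 0.26), not called but called in 6 of 11 alternatives. With the replicate number as a block 1 member was called (1.26% of all genes were), with whole clusters as classes 1 (0.256%) and with no filter 6 (1.61%). With a library left out there were between 1 and 5, the 5 without oviduct replicate 1 (1.35%).

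**Figure D3:**
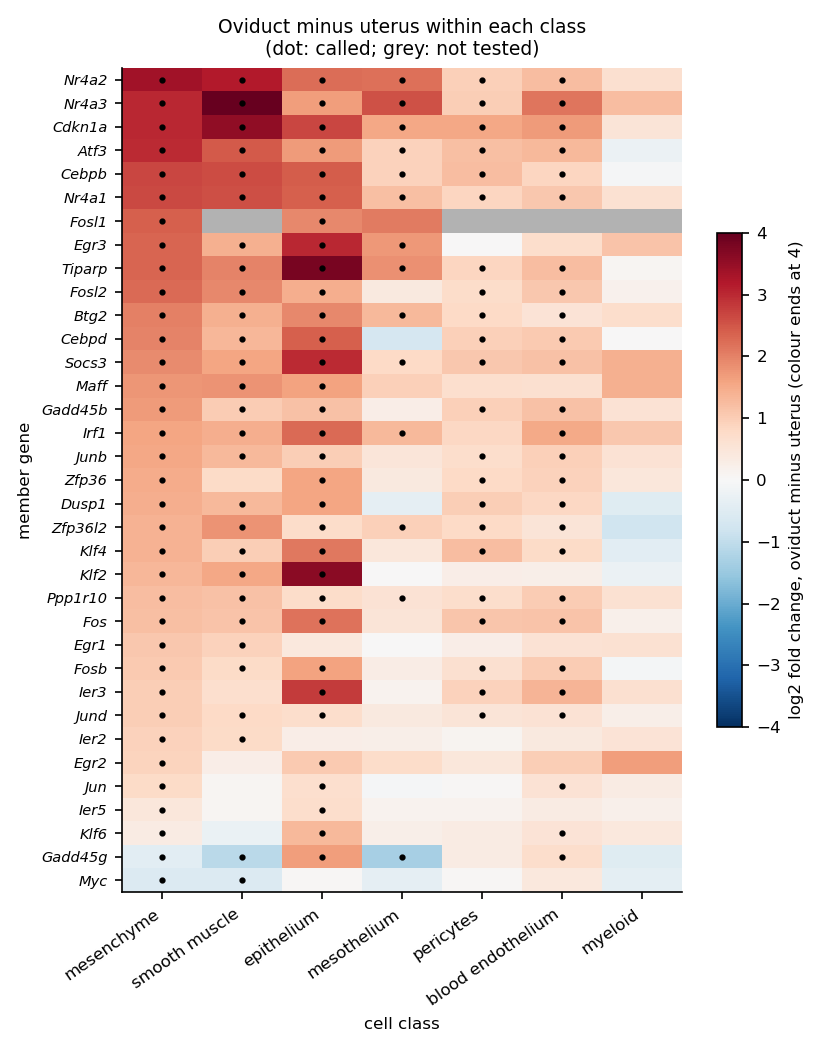
Log2 fold change, oviduct minus uterus, of each member (rows, ordered by the value in mesenchyme) in each of the 7 classes (columns); red is higher in the oviduct, blue higher in the uterus, a dot marks a called gene and grey a gene not tested. Most of the mesenchyme, smooth muscle and epithelium columns are red with dots, the myeloid column has no dot, and Gadd45g is blue in mesenchyme, smooth muscle and mesothelium and red in epithelium and blood endothelium.

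Across the 7 classes, 11 members were called higher in the oviduct in every class but myeloid cells: Atf3, Btg2, Cdkn1a, Cebpb, Nr4a1, Nr4a2, Nr4a3, Ppp1r10, Socs3, Tiparp and Zfp36l2. Of the genes tested in mesenchyme 0.107% were called so in 6 or more classes. The rule used this contrast, and nothing is read from the difference. Only Cdkn1a and Nr4a2 were called under every alternative run for these classes, and the other 9 lost the call in at least 1. In blood endothelium Zfp36l2 was not called in 9 alternatives, among them each with a library left out, and Btg2, Cebpb and Nr4a3 were not called in 5 each, with Cebpb at -0.0748 after subtraction of free RNA. In mesothelium the calls of Atf3, Nr4a1, Ppp1r10 and Socs3 were lost without uterus replicate 1. A further 10 were called in 5 classes (0.321% of genes), 3 in 4 (0.982%), 4 in 3 (3.17%), 6 in 2 (10.0%) and 1, Myc, in 0. Without a replicate block, Gadd45g was the only member called in opposite directions. It was higher in the uterus in mesenchyme, smooth muscle and mesothelium and higher in the oviduct in epithelium and blood endothelium, where it was at 106 and 104 CPM against 65.7 and 65.4 (0.71 ± 0.15). With the replicate number as a block, Cebpd (-0.64) and Dusp1 (-0.37) were also called higher in the uterus in mesothelium, against the oviduct in other classes. The members called higher in the oviduct in 2 classes were Egr1, Egr2, Fosl1, Ier2, Ier5 and Gadd45g.

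The organ difference of a gene in a class was set against that in mesenchyme by fitting the interaction of organ and class within libraries. The members were chosen with organ differences known, so these values describe them, and nothing is read from their share beside that of all genes. The members called for it were 19 of 35 in smooth muscle, where 16.2% of all genes tested were called, 20 of 35 in epithelium (19.5%), 26 of 35 in mesothelium (16.1%), 28 of 34 in pericytes (11.7%), 25 of 35 in blood endothelium (12.9%) and 20 of 35 in myeloid cells (2.37%). A negative value means that the gene lay further toward the uterus than in mesenchyme. It was negative for 16 of the 19 in smooth muscle, for all 26 in mesothelium, for 26 of 28 in pericytes, for 22 of 25 in blood endothelium and for all 20 in myeloid cells. In epithelium 12 were positive and 8 negative, a division that became 7 and 10 when library size alone was the scale, 7 and 15 without uterus replicate 2 and 14 and 6 without uterus replicate 1. Against mesenchyme, the organ difference of Klf2 was larger by 2.40 ± 0.22 in epithelium, and that of Nr4a3 larger by 1.77 ± 0.28 in smooth muscle. For Nr4a2 in pericytes the value was -2.33 ± 0.16, the organ difference falling from 3.36 in mesenchyme to 0.94. DESeq2 called 8 in smooth muscle, 12 in epithelium and 5 in myeloid cells.

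The members also differed between classes within the same library. The highest mean over the 4 libraries lay in mesothelium for 18 of the 35 members (18.5% of the genes tested in mesenchyme had it there), in myeloid cells for 9 (17.1%), in epithelium for 4 (18.0%), in pericytes for 2 (12.7%) and in mesenchyme and smooth muscle for 1 each (10.6% and 6.34%). The lowest mean lay in blood endothelium for 17 (13.6%). In mesothelium against mesenchyme, 23 of 35 members were called higher and 1 lower, against 21.1% and 20.3% of the 15663 genes tested. Fosl1, an AP-1 subunit typical of epithelia and migrating cells, was at 8.22, 24.0, 1.61 and 5.75 CPM in mesothelium of oviduct 1 and 2 and uterus 1 and 2, and at most at 1.22 in mesenchyme (log2 fold change 4.12 ± 0.28, adjusted p 7.93e-05). Uterine mesothelium held 1245718 and 1217486 UMIs in all, so 1.61 and 5.75 CPM there are few molecules. Each class value, here and for the classes below, is 1 average over both organs. Yet 26 of 35 members were called for the interaction in mesothelium, 25 of 35 in blood endothelium and 28 of 34 in pericytes. In epithelium and in myeloid cells 20 of 35 were called for it, and in smooth muscle 19 of 35. Atf3 was at 1077, 1696, 551 and 897 CPM in mesothelium (3.27 ± 0.45, adjusted p 0.00158). By fold, Atf3 stood further above mesenchyme in the uterus than in the oviduct. Every one of its mesothelial libraries lay above every mesenchymal one. Klf6 was at 398, 614, 385 and 475 CPM (2.30 ± 0.09, adjusted p 1.32e-05), likewise above the mesenchyme of all libraries. Fos was 1.98 times as high as in mesenchyme by the fit (0.98 ± 0.16, adjusted p 0.00289). Nr4a3 was the member lower in mesothelium, by 1.95 on the log2 scale (adjusted p 0.000156). The calls of Btg2, Cebpb, Egr1, Jun and Zfp36 were lost without either uterine library, and those of Dusp1, Gadd45b and Maff without uterus replicate 2.

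In blood endothelium 15 of 35 members were called lower and 8 higher, but 35.3% and 27.9% of the 14793 genes tested were also called lower and higher, so these counts are near the background. The single genes were far apart. Cebpb was at 26.8, 20.4, 11.5 and 15.1 CPM in endothelium and at 76.1 or more in mesenchyme (-3.96 ± 0.37, adjusted p 8.82e-05), and up to 66.4% of its endothelial UMIs could come from free RNA. By fold, Cebpb stood further below mesenchyme in the oviduct than in the uterus. Fosb was at 109.8, 166, 69.8 and 69.9 CPM (-2.79 ± 0.07, adjusted p 2.32e-07), and Fos at 431, 716, 249 and 275 (-1.84 ± 0.09, adjusted p 2.68e-06). Klf2, which is known to respond to blood flow in endothelium, was at 380.2, 328, 319 and 297 CPM (1.56 ± 0.24, adjusted p 0.00117). By fold, Klf2 stood further above mesenchyme in the uterus than in the oviduct. Cebpd (1.69 ± 0.24), Egr3 (1.44 ± 0.32) and Dusp1 (1.17 ± 0.15) were also higher in endothelium than in mesenchyme.

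In epithelium 10 members were called higher and 8 lower than in mesenchyme, against 23.5% and 27.5% of genes, shares close to those of the members. Fosl1 (3.63 ± 0.39, adjusted p 0.000618), Atf3 (2.60 ± 0.35, adjusted p 0.00142), Klf6 (2.46 ± 0.27, adjusted p 0.000657) and Cebpd (2.16 ± 0.15, adjusted p 9.36e-05) were highest against mesenchyme. Without thinning, Fosl1 was seen in only 5.77% and 2.78% of the 52 and 72 uterine epithelial cells, against 14.9% and 14.6% in the oviduct. Socs3 (-1.63 ± 0.26, adjusted p 0.00319), Nr4a3 (-1.45 ± 0.32) and Ier5 (-1.30 ± 0.13) were lower. Without oviduct replicate 1 the count fell to 10, and the calls of Egr1, Egr2, Egr3, Btg2, Ier3, Nr4a2 and Nr4a3 were lost without either oviduct library.

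Myeloid cells had 14 members called higher and 10 lower than mesenchyme, against 18.6% and 27.4% of genes. Egr2 was at 136, 134, 43.1 and 38.5 CPM in myeloid cells and at 9.21 or less in mesenchyme (3.71 ± 0.25, adjusted p 7.79e-09). Klf6 (2.50 ± 0.19), Cdkn1a (2.17 ± 0.39), Cebpb (1.72 ± 0.43) and Zfp36 (1.71 ± 0.28) were higher. Socs3 (-2.16 ± 0.23), Fosb (-1.70 ± 0.22) and Gadd45g (-1.66 ± 0.24) were lower. Members of 1 family stood on both sides: Fos, Jun and Egr1 were lower in myeloid cells, while Junb, Egr2 and Egr3 were higher, Junb not with DESeq2, after subtraction of free RNA, without the library as a block or without uterus replicate 1.

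Pericytes had 3 of 34 members called higher and 10 lower, against 15.7% and 18.9% of genes. Gadd45b was the clear exception, at 746, 975, 329 and 533 CPM in pericytes (1.85 ± 0.16, adjusted p 3.98e-05), above the mesenchyme of the same library in each of the 4. Klf4 (-1.22 ± 0.14), Ier3 (-1.07 ± 0.10) and Klf2 (-1.01 ± 0.19) were lower. In smooth muscle 2 members were called higher than in mesenchyme (9.11% of genes were) and 10 lower (7.61% of genes were). Irf1 (-0.79 ± 0.06), Dusp1 (-0.78 ± 0.09) and Cebpb (-0.63 ± 0.08) were lowest against mesenchyme. The number called in smooth muscle was 6 without the library as a block, 6 without oviduct replicate 1 and 6 without uterus replicate 2. Irf1 and Dusp1 were among the calls lost without the block, while Cebpb kept its call.

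**Figure D4:**
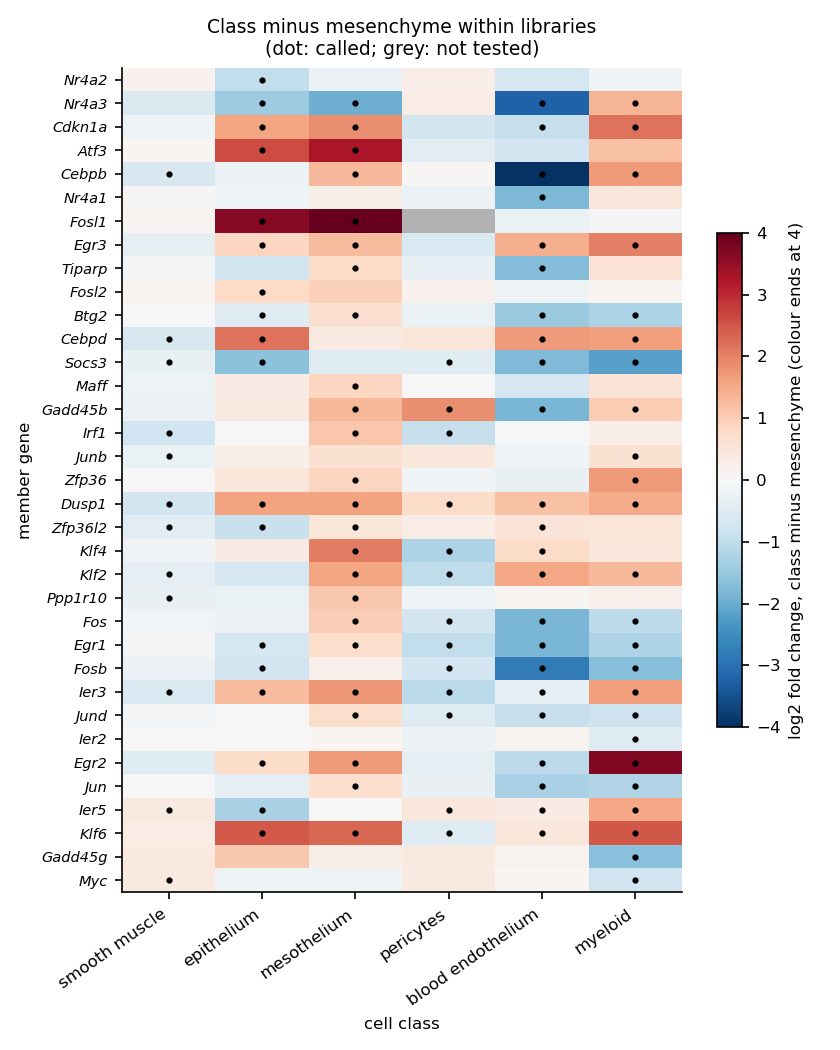
Log2 fold change of each member (rows, in the order of the organ plot) in 6 classes against mesenchyme of the same libraries; red is higher in the class, blue lower, a dot marks a called gene and grey a gene not tested. Mesothelium is mostly red, blood endothelium mostly blue, and the other classes hold both.

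Single cells showed how the difference is spread within mesenchyme. With each cell thinned to 5000 UMIs, the median cell held 58 and 75 UMIs of the members for the oviduct libraries against 15 and 20 for the uterine ones, and the median number of members with a UMI was 17 and 18 against 8 and 10. Cells below this depth were left out, 196, 231, 23 and 65. At the 10th percentile oviduct cells held 8 and 17 such UMIs and uterine cells 3 and 4. At the 90th percentile they held 117 and 139 against 59 and 82, so the organs overlapped cell by cell. Oviduct replicate 1 did not have a single peak: 62 of its cells held 5 such UMIs, 10 held 17 and 40 held 57. Neighbouring numbers varied, with 22 cells at 16 UMIs, 18 at 18, 19 at 56 and 40 at 58. The depth of the dip is therefore not read from single numbers. In the uterine libraries the most frequent number was 3 UMIs, in 97 and 67 cells. The share of thinned cells with a UMI was higher in both oviduct libraries for 32 members, lower for Myc, and overlapped for Ier3 and Gadd45g. In a second thinning, over all genes, it was higher in both oviduct libraries for 31 members and for 35.9% of the genes tested in mesenchyme. For Nr4a1 it was 62.6% and 73.3% against 18.8% and 27.5% (73.4%, 81.8%, 32.5% and 44.9% unthinned). For Jund it was 94.5% and 96.7% against 83.0% and 87.5% (97.3%, 97.7%, 96.7% and 97.7% unthinned), so that without thinning nearly every cell had a UMI of it. Jund was also at 899 and 883 CPM in oviduct free RNA and at 386 and 495 in that of the uterus. The part of free RNA in these shares was not tested. An exact permutation test over 2 against 2 libraries cannot go below a p of 0.333. The endothelial gene Cdh5, which mesenchyme should lack, was seen in 0.455%, 0.0926%, 0.176% and 1.25% of the thinned cells.

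**Figure D5:**
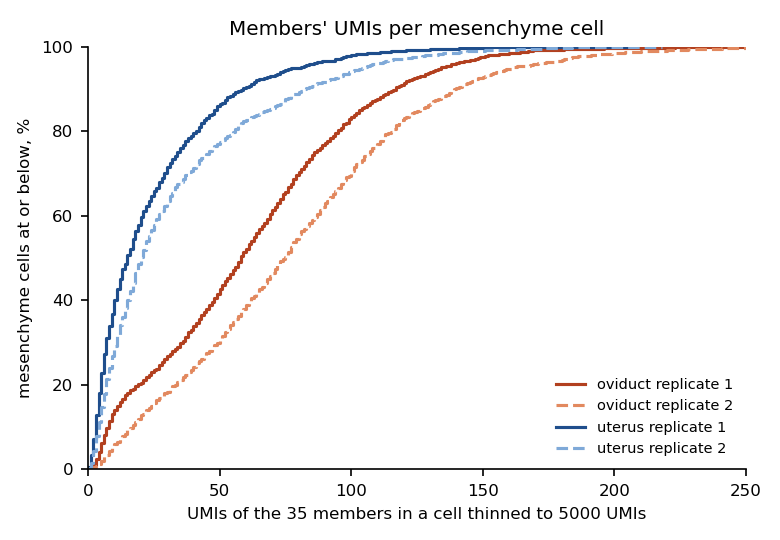
Cumulative share of mesenchyme cells (vertical axis, %) by the number of UMIs of the 35 members in a cell thinned to 5000 UMIs (horizontal axis), one line per library (red, oviduct; blue, uterus; full line, replicate 1; dashed, replicate 2). Both uterine lines rise to the left of both oviduct lines, with medians of 15 and 20 against 58 and 75 UMIs.

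From cell to cell, the genes most like Fos in mesenchyme were members as well. By the mean of Pearson's r over the 4 libraries (log of 1 plus counts per 10000, 9705 genes ranked), the 8 nearest were Egr1 (0.716), Fosb (0.679), Junb (0.649), Jun (0.621), Socs3 (0.592), Btg2 (0.569), Ier2 (0.546) and Jund (0.540), all of the set. Of the 20 nearest genes 13 were members, and the nearest gene outside the set was Ppp1r15a at place 11 (0.492). Cells of 1 library share depth and free RNA, so these are descriptions. Among these 8, Egr1 was the nearest in both oviduct libraries (0.734 and 0.640), and Fosb in both uterine libraries (0.763 and 0.777). The order was close in some libraries. Fosb was at 0.552 and 0.625 in the oviduct, and Egr1 at 0.762 and 0.729 in the uterus. Myc was weakly tied to Fos, with an r of 0.142 and 0.0999 for the oviduct libraries and 0.0836 and 0.104 for the uterine ones.

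Genes of related responses outside the set were counted in mesenchyme from fixed lists, where calls toward the oviduct took in 23.3% of all genes tested and calls toward the uterus 20.6%. Of 24 other immediate early genes tested, 17 were higher in the oviduct, 1 higher in the uterus and 6 not called (median 1.27). Plk2, a polo-like kinase, was at 116 and 133 CPM against 7.36 and 12.1 (3.61 ± 0.18) and Sik1, a salt-inducible kinase, differed by 1.71, while the matricellular gene Ctgf was higher in the uterus (-0.75). Of 14 genes of ERK feedback, 10 were higher in the oviduct and 1 lower (median 0.57), among them Dusp5 (1.92) and Spry2 (1.19), with Spred1 at -0.25. Of 10 genes of the integrated stress response, 9 were higher in the oviduct and 1 lower (median 0.87), with Herpud1 at 1.84 and Ppp1r15a at 1.43. The one that was lower, Asns, the asparagine synthetase gene, had the largest change of the list (-1.93). Of 21 genes of NF-kB and cytokine response, 6 were higher in the oviduct and 15 were not called (median 0.47), with Nfkbiz at 1.60 and Rel at 1.11, and the share toward the oviduct was near that of all genes. These calls had no replicate block, and several genes stood far higher in replicate 2 of both organs. Cxcl10 was at 22.9 and 136 CPM against 15.7 and 104, and Nfkbia at 201 and 459 against 98.9 and 319. Within same-numbered pairs Cxcl10 was at 1.46 and 1.31 times and Nfkbia at 2.04 and 1.44. Of the genes not called, only Tnf, Cxcl2 and Tnfaip3 were not above 1 in both pairs. A fit of this list with the block was not examined. Of 12 p53 targets, 7 were higher in the oviduct and 2 lower (median 0.34), with Plk2 on this list as well, Bbc3 at 1.70, Phlda3 at -0.47 and Aen at -0.94. The 3 metal response genes were all higher in the oviduct (median 1.26), Mt1 by 1.99, and free RNA could supply up to 69.9% of the mesenchymal UMIs of Mt1 and 42.4% of those of Mt2.

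Heat shock and protein folding genes did not share the direction. Of 17 tested, 7 were higher in the oviduct, 6 higher in the uterus and 4 not called, with a median of -0.099. Hspa1a, an inducible heat shock chaperone, was at 47.5 and 30.1 CPM in the oviduct against 142 and 129.8 in the uterus (-1.85 ± 0.17). Its near-identical copy Hspa1b was at 24.9 and 21.6 CPM against 85.7 and 73.3 (-1.82 ± 0.10), and reads may be divided between the 2 copies. Both were higher in the uterus, as were Myc and Gadd45g of the set. Cryab (0.52 ± 0.11) and Dnajb1 (0.48 ± 0.11) were slightly higher in the oviduct. Bag3 had the largest change of the list toward the oviduct (0.81 ± 0.10), at 23.8 and 23.5 CPM against 14.2 and 12.0. Of 8 housekeeping genes, B2m (0.46) was higher in the oviduct, Actb (-0.32) higher in the uterus and 6 were not called.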

How the data were processed

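The 4 libraries were analysed from UMI counts that the authors deposited as filtered and raw matrices. Per the file headers the matrices were written by Cell Ranger (6.0.1 for the filtered and 4 for the raw matrices). The submitters' processing notes name Cell Ranger, Seurat 4.2.3 and mm10. The members and lists were chosen with earlier results of these data known.

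Barcodes under 500 genes or above 15% mitochondrial UMIs were removed. The threshold of Scrublet itself marked only 4 barcodes, so the highest-scoring 0.8% per 1000 barcodes were removed, leaving 20375 of 26619. Classes were gated on marker genes, with limits set after the marker levels had been seen. UMIs were summed per library and class and fitted in edgeR 4.0.16 (TMM, low-count filter, quasi-likelihood test, Benjamini-Hochberg over all genes, called under 0.05) in R 4.3.3. Class comparisons and interactions had the library as a block. DESeq2 1.42.0, other scalings and filters, free RNA subtraction, whole clusters (scanpy 1.11.5) and leaving out each library were tried, and the fits were tested on simulated data. The 2 libraries of an organ are separate pools, and p-values measure the spread between these pools only.

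Same-numbered libraries were taken as pairs because the series text names shared neonates, although the labels do not say which number is which pool. Their deviations from the organ means correlated at 0.223 in mesenchyme, 0.146 in smooth muscle, 0.136 in mesothelium, 0.0211 in myeloid cells, 0.000644 in pericytes, -0.232 in blood endothelium and -0.301 in epithelium.

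Members with a mean of at least 100 CPM in mesenchyme, and members called in opposite directions in 2 classes, were given in full. Values of other members were printed after they had been seen. The 8 genes nearest to Fos were named, and from each list the 2 largest called changes per direction in mesenchyme where the mean level reached 20 CPM. Asns, Aen and Bag3 lie under that level and were named after their values were seen.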

Additional observations from a re-analysis of the deposited data

Results flagged for a closer look

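The organ difference (oviduct minus uterus, log2) of a member was compared with its organ difference in mesenchyme by an interaction term in edgeR, and the counts are of members called. The genes were chosen with their organ differences known, so the counts describe the chosen genes and are no evidence that they differ between classes more than other genes. A negative value is an organ difference lower than in mesenchyme, and need not mean a level higher in the uterus. In smooth muscle 19 were called, with Nr4a3 (1.77) at the positive end and Egr3 (-0.91) at the negative end. In epithelium 20 were called, from Klf2 (2.40) to Atf3 (-1.24). In mesothelium 26 were called, all with negative values, and Cebpd (-2.58) had the lowest. In pericytes 28 were called, from Gadd45g (0.77) to Nr4a2 (-2.33). In blood endothelium 25 were called, from Gadd45g (1.13) to Nr4a2 (-2.10). In myeloid cells 20 were called, all with negative values, and Atf3 (-3.06) had the lowest.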

How the results depend on the processing

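The count of members called between organs in mesenchyme (35) was 29 with DESeq2 and 33 to 35 with a library left out. Counts that moved by over 1.5 times were as follows. With DESeq2, organ calls became 18 in smooth muscle, 12 in pericytes and 16 in blood endothelium, and interaction calls 8 in smooth muscle, 12 in epithelium and 5 in myeloid cells. With no filter on low counts, organ calls became 24 in mesothelium and 6 in myeloid cells. With the replicate block they became 25 in mesothelium and 1 in myeloid cells, and no other organ count moved that far; 8 single calls were lost. With no replicate block, smooth muscle against mesenchyme gave 6. With whole clusters as classes, myeloid cells gave 1.

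With a library left out, the organ counts ranged from 11 to 29 in mesothelium (highest without oviduct replicate 1), from 17 to 27 in blood endothelium (lowest without oviduct replicate 2) and from 1 to 5 in myeloid cells. Against mesenchyme they ranged from 6 to 8 in smooth muscle and from 10 to 20 in epithelium (lowest without oviduct replicate 1). The interaction counts ranged from 10 to 21 in smooth muscle (lowest without uterus replicate 2) and from 7 to 21 in myeloid cells (lowest without uterus replicate 1). The cause was not tested, other than that fewer libraries were fitted.

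Among the called values and the shares of mesenchyme cells, 6 changed sign: Irf1 in the epithelial interaction without uterus replicate 2 (-0.0887, with 1.33 as the highest value when a library was left out), Zfp36 in the myeloid interaction without uterus replicate 1 (0.0734, with -1.95 as the lowest), Cebpb between organs in blood endothelium with free RNA subtracted (-0.0748), Ier5 between organs in the shared mesenchyme clusters (-0.144), and the shares of unthinned mesenchyme cells with Ier5 (-2 percentage points) and Klf6 (-1.31). Of 4452 values of called genes under the alternatives, 4024 kept their direction and side of the threshold and 424 were no longer called. Of 2679 values of members not called as reported, 214 were called under an alternative. Crossing the replicate numbers, chosen after seeing the data, gave 33 calls in epithelium and 26 in blood endothelium.

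Library size without TMM moved the median of all genes by more than 0.1 between organs in epithelium (0.0069 to -0.13), in the interactions of epithelium (0.12 to -0.15), mesothelium (0.096 to -0.025) and myeloid cells (0.23 to 0.10), and against mesenchyme in mesothelium (-0.047 to 0.10), epithelium (-0.070 to 0.041) and blood endothelium (-0.097 to 0.039). No called member changed sign under it. Summed UMIs per library were lowest in myeloid cells (311552 to 784281), in uterine mesothelium (1217486 and 1245718) and in uterine epithelium replicate 1 (1429922), and small differences there may not be detectable at this depth.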
